A study of Neurospora crassa with 20 samples.

Results

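The subject is 6 short H3K9me3 sites of the filamentous fungus Neurospora crassa, named after the genes they lie beside or over: NCU02049, NCU02738 (pef-1), NCU09251, NCU05188, NCU03747 and NCU04170. The sites were chosen by their H3K9me3 peak values: a peak in WT in the dark with a q-value under 0.01, an overlapping WT peak in the light with a q-value under 0.01, and no overlapping peak in either list of Δkmt2/Δset-1. Of the 691 H3K9me3 peaks of WT in the dark, 45 recurred in WT in the light and had no peak in Δkmt2/Δset-1, and 6 of them, or 0.868% of all, met the q-value on both lists. The loss of H3K9me3 is therefore the way the sites were selected and not a result. What the selection did not use is H3K4me3, which is described here over each site and 10 kb on either side, 6 windows in all.

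ChIP-seq recovers sheared, crosslinked chromatin with an antibody against a histone mark and sequences the DNA. The series has 20 samples in 10 groups of 2 biological replicates, from mycelia of 3 strains: Δkmt2/Δset-1, Δkmt1/Δdim-5 and WT. Cultures were harvested after 24 h in the dark (DD), or after 30 min of light following the dark (LP30). H3K9me3 was taken from Δkmt2/Δset-1 LP30, Δkmt2/Δset-1 DD, WT LP30 and WT DD, with Δkmt1/Δdim-5 DD as the control. H3K4me3 was taken from Δkmt1/Δdim-5 LP30, Δkmt1/Δdim-5 DD, WT LP30 and WT DD, with Δkmt2/Δset-1 DD as the control. Both mutants are gene deletions made by a knockout consortium and backcrossed to the WT strain, and each is represented by 1 strain. The 2 marks were therefore read in different mutants. H3K4me3 in Δkmt2/Δset-1 and H3K9me3 in Δkmt1/Δdim-5 have no peak list of their own, since these samples served as the controls. A fold enrichment of H3K9me3 in WT is thus a ratio of WT to Δkmt1/Δdim-5 DD. For H3K4me3 in WT it is a ratio of WT to Δkmt2/Δset-1 DD.

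In Neurospora, KMT1/DIM-5 places the methyl groups on lysine 9 of histone H3 that mark heterochromatin, which in this fungus mostly covers long stretches of repeats. KMT2/SET-1 methylates lysine 4, and its trimethylated form is found at the 5′ ends of active genes in most eukaryotes. The study asked how each mark depends on the enzyme of the other, in the dark and in the light.

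Each of the 8 peak lists pools the replicates of its group, so no spread between replicates, no SD and no test between conditions could be had for any value below. The lowest −log10 p of any peak was between 1.00 and 1.04 in each list, and a place without a peak may still have carried the mark below that level. The lists hold between 691 and 827 H3K9me3 peaks and between 4449 and 4822 H3K4me3 peaks. The dim-5 gene itself (NCU04402) had no H3K4me3 peak in Δkmt1/Δdim-5 LP30 or DD, against a fold enrichment of 1.5 in WT LP30 and 1.61 in WT DD. The set-1 gene (NCU01206) had no H3K9me3 peak in any of the 4 lists, so the H3K9me3 lists cannot check its deletion. It is deleted in the H3K4me3 control, and H3K4me3 peaks over it reached 5.10, 5.18, 5.21 and 5.24 in Δkmt1/Δdim-5 LP30, Δkmt1/Δdim-5 DD, WT LP30 and WT DD.

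The 6 sites were short and weakly enriched. In WT DD they measured between 402 and 1060 bp, with a median of 635 bp, and their fold enrichment over the control, a mean over the peak, ran between 1.25 and 1.54. In WT LP30 the peaks measured between 268 and 1025 bp, with folds between 1.25 and 1.54. Ranked by fold among all WT DD peaks the sites were near the middle, above 52.4% to 58.3% of them. Among the 310 WT DD peaks shorter than 2 kb they ranked high, above 86.5% to 93.9%, as a choice by q-value among short peaks brings with it.

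**Figure D1:**
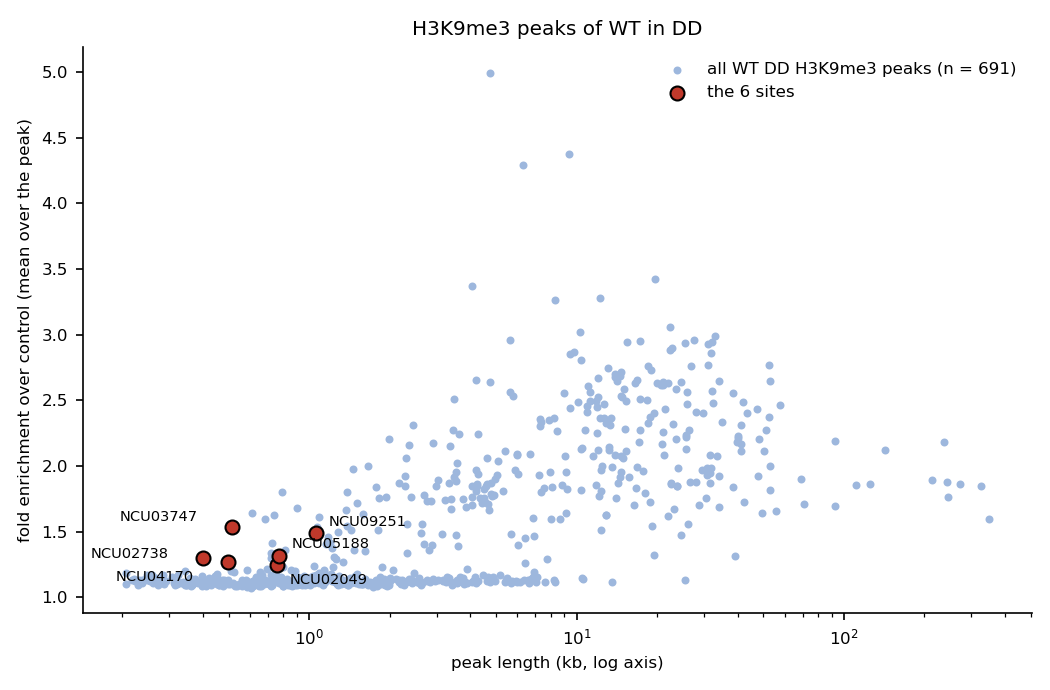
Length (kb, log axis) and fold enrichment over control of the 691 WT DD H3K9me3 peaks, 1 point per peak, with the 6 sites in red. The sites sit between 402 and 1060 bp and between 1.25 and 1.54-fold, above the band of short peaks of low fold and far below the enrichment of many longer domains.

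The strongest 2 sites were those of NCU03747 and NCU09251. The NCU03747 site lies on chromosome V at 2287642-2288154 of the NC12 build and had folds of 1.53 in WT LP30 and 1.54 in WT DD, with −log10 q of 9.27 and 9.91. It fills much of a gap of 994 bp between NCU03747, which ends 231 bp away, and NCU03748, which begins 250 bp away on the other side. The NCU09251 site, on chromosome I at 9406873-9407932, had folds of 1.54 in WT LP30 and 1.49 in WT DD, with −log10 q of 9.61 and 8.40. Its edge lies 83 bp from NCU09251, in a gap of 4156 bp that NCU09252 bounds on the other side.

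The other 4 sites had folds between 1.25 and 1.31 in both WT lists. The site of NCU05188, on chromosome IV at 5814520-5815293, had 1.28 in WT LP30 and 1.31 in WT DD and lies 1449 bp from NCU05188 and 2040 bp from NCU05189. The site of pef-1, on chromosome I at 3378432-3378833, had 1.30 in both WT lists and lies 1316 bp from pef-1 and 3118 bp from NCU02739. The site of NCU04170, on chromosome V at 5071850-5072346, had 1.25 in WT LP30 and 1.27 in WT DD and lies 1233 bp from NCU04170 and 2278 bp from NCU04169. The site of NCU02049, on chromosome I at 1550469-1551225, had 1.26 in WT LP30 and 1.25 in WT DD. It was the single site with bases in a gene: 192 bp of the WT DD peak lay inside NCU02049, while the shorter WT LP30 peak of 407 bp ended before the gene. NCU02051 lies 1615 bp away on its other side, and a tRNA gene, NCU15013, lies within that stretch at 1550129-1550221. The annotation gives no strand, so whether a site stands before or behind its gene is not stated. It also gives no product names, and of the 6 genes it holds a symbol for pef-1 alone.

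The lowest values inside the selection and those of the next peaks outside it were as follows. In WT LP30 the site of pef-1 had a −log10 q of 2.94, and in WT DD the site of NCU02049 had 2.88, the lowest of the 6 in each list. The next peak in line, on chromosome V at 1537526-1538320 near NCU04604, had 1.84 in WT LP30 and 2.20 in WT DD, against a threshold of 2. The one after it, on chromosome II at 2795541-2795746 near NCU01656, had 1.52 in WT LP30 and 1.90 in WT DD.

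Of the 6 sites, 4 lay in gene gaps of 4 kb or more, which measured 4008, 4156, 4263 and 4836 bp. The gaps measured between 994 and 4836 bp, with a median of 4082 bp. Over all 8576 gaps between neighbouring protein-coding genes the median was 781 bp, and 8.30% were of 4 kb or more. Each gap was counted once there, whatever its length, while a longer gap has more room for a peak. The comparison is therefore not like with like, and no preference for long gaps is read from it. Short H3K9me3 peaks in general also stood in long gaps. The 234 WT DD peaks under 2 kb whose midpoint lay outside genes stood in gaps with a median of 3019 bp, 39.7% of them of 4 kb or more. The gaps of the NCU02049 and NCU03747 sites, of 2180 and 994 bp, were shorter than that median.

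The nearest H3K9me3 peak of Δkmt2/Δset-1 lay at very different distances from the sites. At pef-1, NCU09251 and NCU04170 no peak of either Δkmt2/Δset-1 list came within 10 kb, and the nearest stood between 29669 and 51350 bp away. At NCU02049 a weak peak lay 2147 bp from the site in Δkmt2/Δset-1 LP30 and 2120 bp in Δkmt2/Δset-1 DD, over NCU02051, with a fold of 1.12 in both. At NCU05188 a weak peak lay 1606 bp away in LP30, with a fold of 1.14, and 1621 bp away in DD, with a fold of 1.17, in the gap between NCU05189 and the site. Neither of these 2 places had a peak in WT LP30 or WT DD, and none of the 4 mutant peaks reached a q-value under 0.01, with −log10 q between 0.62 and 1.33.

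NCU03747 was the only one of the 6 windows with a longer H3K9me3 domain, and this domain was present in both strains. It measured 5183 bp in Δkmt2/Δset-1 LP30 and 5155 bp in Δkmt2/Δset-1 DD, against 4060 bp in WT LP30 and 4204 bp in WT DD. Its fold was 2.60 in both Δkmt2/Δset-1 lists, 2.58 in WT LP30 and 2.66 in WT DD. In LP30 the mutant domain ran 636 bp further towards the site and 487 bp further away from it than in WT, and in DD 661 bp and 290 bp further. With that it overlapped the neighbouring gene NCU03746, which no WT peak did, and it ended 4688 bp (LP30) and 4666 bp (DD) short of the site. The window thus held, within 10 kb, a strong domain with a peak in all 4 lists and a weak site with a peak in the WT lists only.

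**Figure D2:**
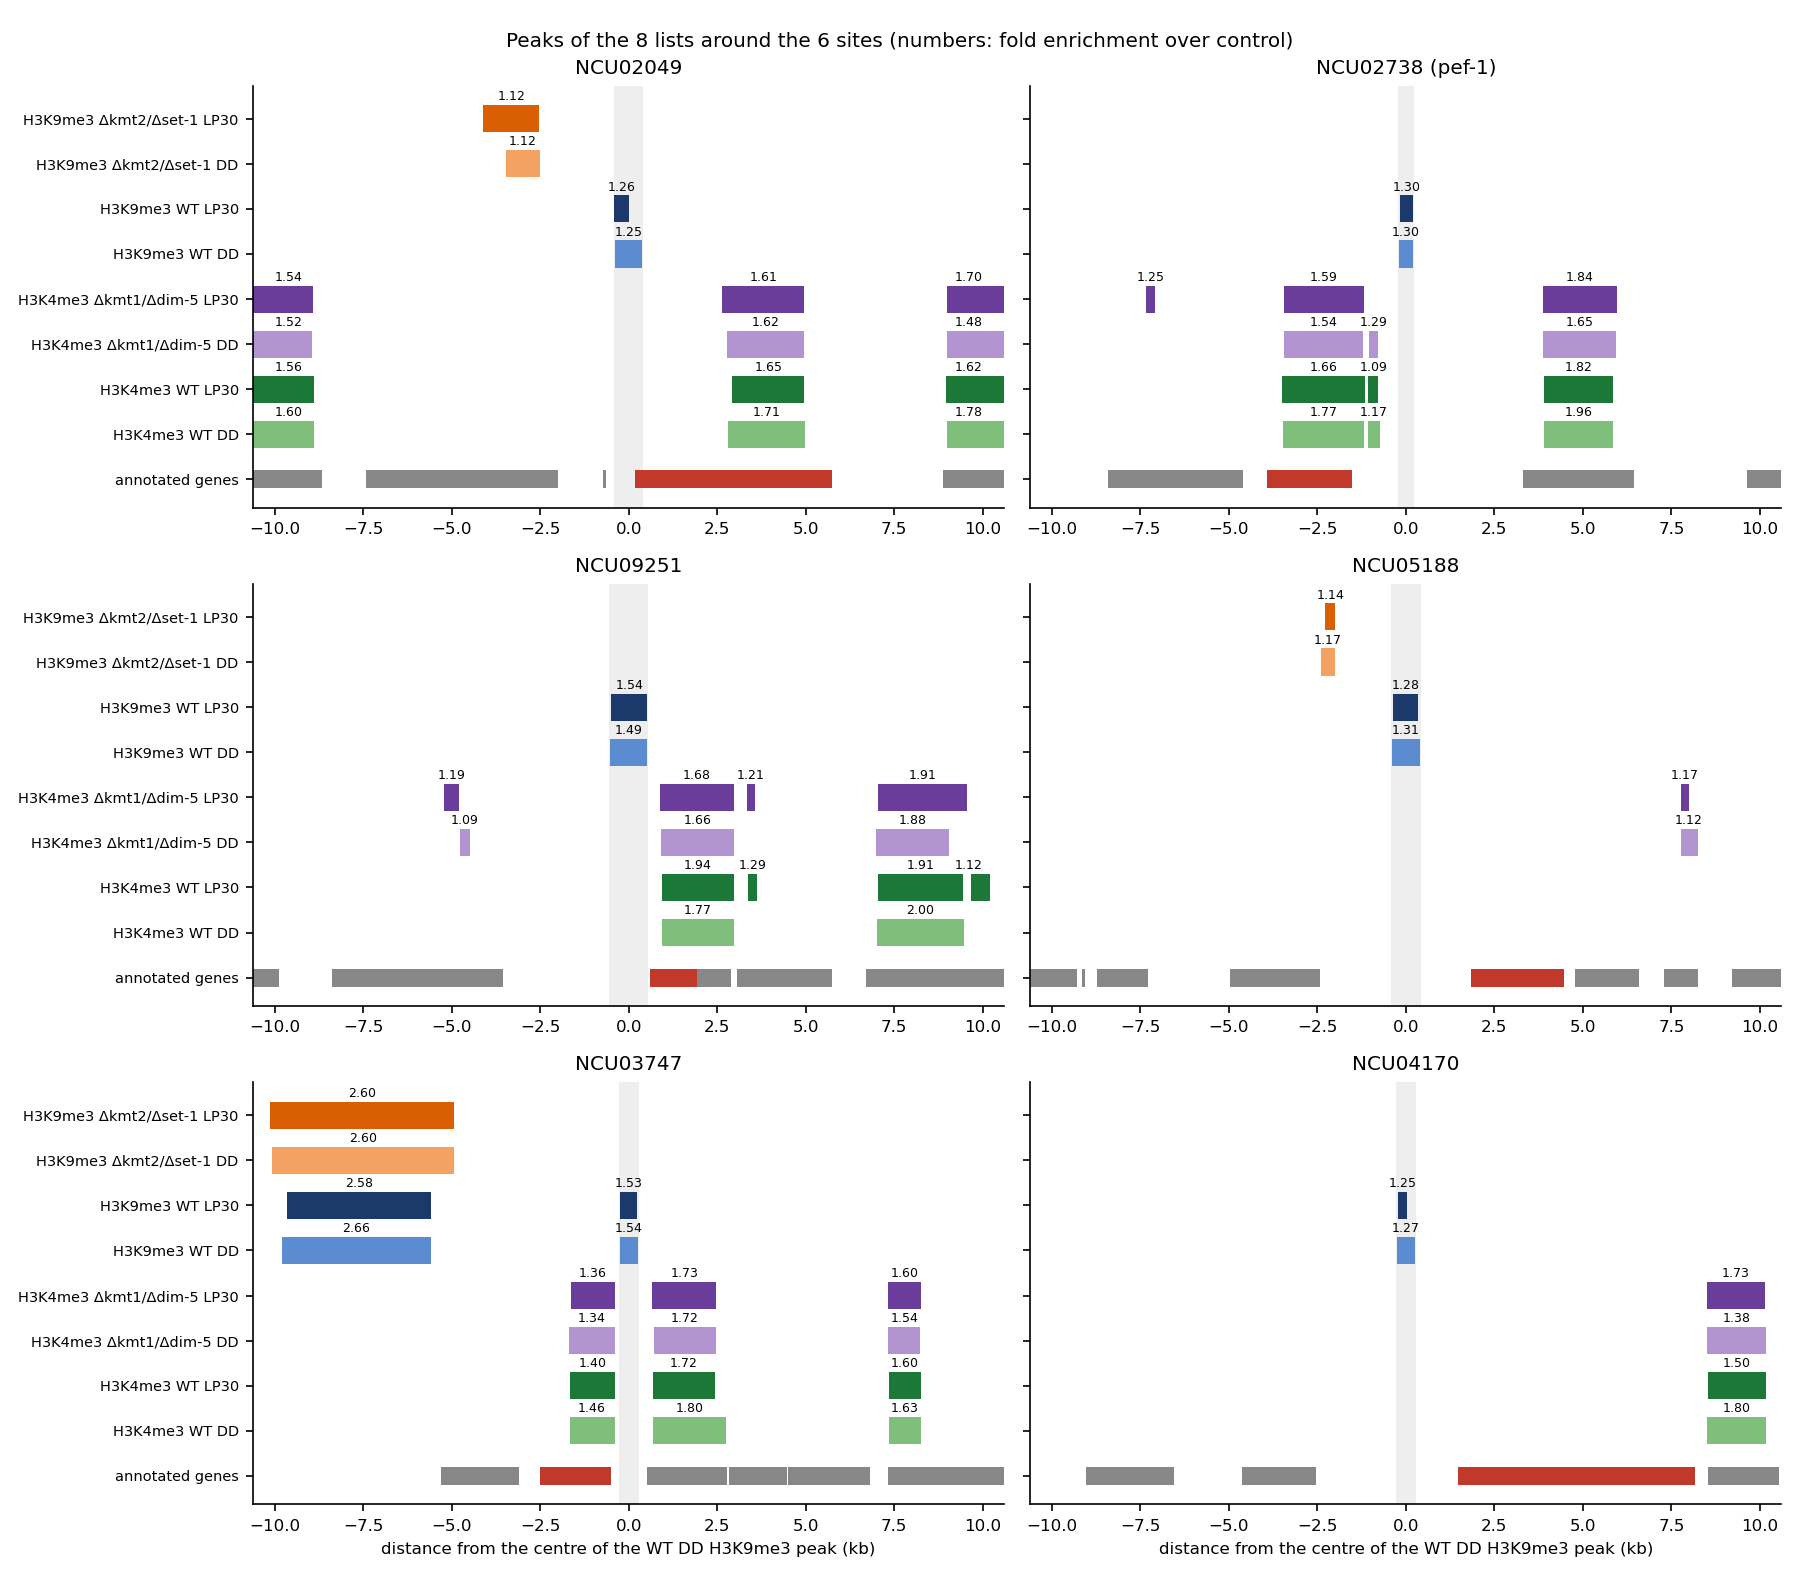
Peaks of the 8 lists in the 6 windows, against the distance in kb from the centre of the WT DD H3K9me3 peak (grey band), with the fold enrichment printed over each peak, the mutant above WT for each mark. In the bottom row annotated genes are grey and the gene that names the site is red. No H3K4me3 peak touches a grey band, and the NCU05188 window has no WT H3K4me3 peak.

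No H3K4me3 peak overlapped any of the 6 sites, in Δkmt1/Δdim-5 LP30, Δkmt1/Δdim-5 DD, WT LP30 or WT DD. This held for every H3K9me3 peak in the windows, of which not a single base lay under an H3K4me3 peak of any list. Of the 310 short WT DD H3K9me3 peaks, 3.87% overlapped an H3K4me3 peak of Δkmt1/Δdim-5 LP30, 5.16% of Δkmt1/Δdim-5 DD, 5.81% of WT LP30 and 6.13% of WT DD. Among the 49 of them with a q-value under 0.01 the share was 10.2%, 14.3%, 14.3% and 12.2% in the same order. Among the 45 recurring WT peaks without a Δkmt2/Δset-1 peak, of which the 6 sites are part, it was 4.44%, 8.89%, 11.1% and 20%. With 6 sites, the count of 0 shows nothing particular to them.

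H3K4me3 was nonetheless close to 3 of the 6 sites. At NCU03747 the nearest H3K4me3 peak was 134 bp away in Δkmt1/Δdim-5 LP30 and 140 bp in Δkmt1/Δdim-5 DD, against 129 bp in WT LP30 and 141 bp in WT DD. At NCU09251 the distances were 345, 376, 399 and 397 bp in the same order of lists. At these 2 sites the distances differed between the 4 lists by 12 and 54 bp, the least of the 6 sites beside NCU04170, where they differed by 32 bp. At pef-1 the nearest peak was 990 bp away in Δkmt1/Δdim-5 LP30 and 575 bp in Δkmt1/Δdim-5 DD, against 572 bp in WT LP30 and 515 bp in WT DD. The longer distance in Δkmt1/Δdim-5 LP30 came from a small peak between pef-1 and the site, between 266 and 364 bp long, that the other 3 lists held and this one did not.

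The other 3 sites were further from H3K4me3. At NCU02049 the nearest peak, inside NCU02049 itself, was 2270 and 2403 bp away in Δkmt1/Δdim-5 LP30 and DD, against 2546 and 2425 bp in WT LP30 and DD. At NCU04170 it was 8240 and 8257 bp away in Δkmt1/Δdim-5 LP30 and DD, against 8272 and 8251 bp in WT LP30 and DD, on the far side of NCU04170. At NCU05188 it was 7375 and 7368 bp away in Δkmt1/Δdim-5 LP30 and DD, against 14750 and 14726 bp in WT LP30 and DD. This was the largest gap between the strains, and it rests on a weak peak at NCU05186 described below.

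The median distance over the 6 sites was 1630 bp in Δkmt1/Δdim-5 LP30, 1489 bp in Δkmt1/Δdim-5 DD, 1559 bp in WT LP30 and 1470 bp in WT DD. For all short WT DD H3K9me3 peaks it was 4978, 5040, 5380 and 5608 bp in the same order, so the 6 sites were nearer to H3K4me3 than short peaks as a whole. They were not nearer than the 49 short peaks with a q-value under 0.01, whose medians were 810, 740, 743 and 669 bp. For the 45 recurring WT peaks without a Δkmt2/Δset-1 peak the medians were 3095, 2403, 4123 and 3326 bp. Likewise 3 of the 6 sites had H3K4me3 within 1 kb in each list, against 53.1% of those 49 peaks in Δkmt1/Δdim-5 LP30, 53.1% in Δkmt1/Δdim-5 DD, 57.1% in WT LP30 and 53.1% in WT DD. With 6 sites, between 129 bp and 14750 bp from H3K4me3, the median moves with each site.

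**Figure D3:**
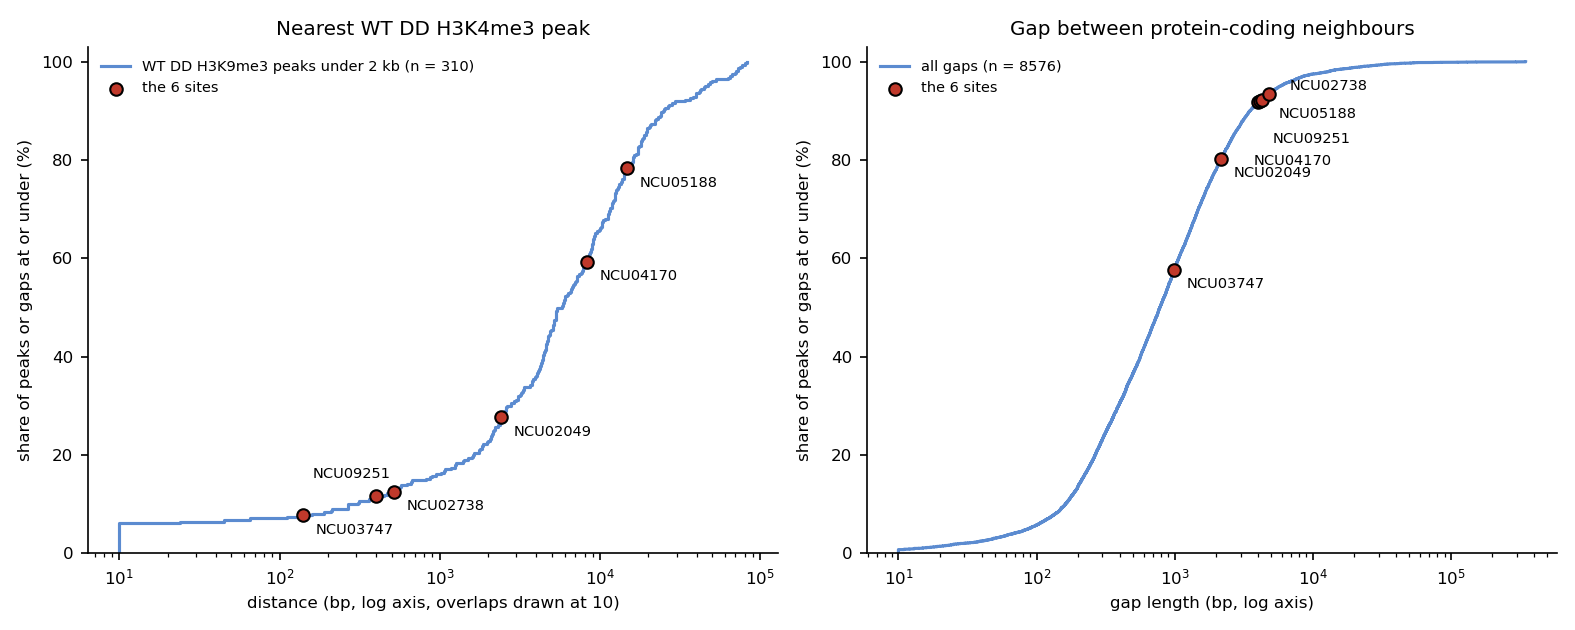
Left, distance from H3K9me3 peaks to the nearest H3K4me3 peak in WT DD (bp, log axis) as the cumulative share of the 310 peaks under 2 kb (line), with the 6 sites as red points: 3 lie under 1 kb and 2 beyond 8 kb. Right, length of the gap between neighbouring protein-coding genes (bp, log axis) as the cumulative share of all 8576 gaps, with the 6 sites' gaps in red: 4 are of 4 kb or more, and that of NCU03747 is 994 bp.

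H3K4me3 around the sites was neither dense nor sparse. The windows held 15 peaks in Δkmt1/Δdim-5 LP30, 14 in Δkmt1/Δdim-5 DD, 14 in WT LP30 and 12 in WT DD, which covered 16.8%, 16.1%, 16.4% and 16.2% of their bases. Windows of the same reach around all 10397 annotated genes were covered to 20.4%, 19.9%, 18.6% and 18.9%, and those around short WT DD H3K9me3 peaks to 10.7%, 10.4%, 9.11% and 9.18%. The 49 short peaks with a q-value under 0.01 lay between, with 17.7%, 17.3%, 16.9% and 17.0%.

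Of the 34 protein-coding genes with a base in the windows, 17 had an H3K4me3 peak in Δkmt1/Δdim-5 LP30, 15 in Δkmt1/Δdim-5 DD, 14 in WT LP30 and 13 in WT DD. Over all 9729 protein-coding genes of the chromosomes the share was 48%, 47.3%, 46.2% and 46.2% in that order, against 50%, 44.1%, 41.2% and 38.2% in the windows. Of the genes that name the sites, 4 of 6 had a peak over at least 1 bp in every list. The summit lay inside the gene for NCU02049, pef-1 and NCU03747, while the peak over NCU09251 had its summit in the adjoining NCU09250. NCU05188 and NCU04170 had no H3K4me3 peak in any list. A chromatin mark in these lists comes from all nuclei of the culture, so fewer nuclei with the mark and less of it per nucleus cannot be told apart.

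The 55 peaks of the windows formed 18 places, and 11 of these carried a peak in all 4 lists, each time with a q-value under 0.01. In the NCU02049 window these were NCU10806, NCU02049 and NCU02048. In the pef-1 window they were pef-1 and NCU02739, and in the NCU09251 window NCU09250 and NCU09248. In the NCU03747 window they were NCU03747, NCU03748 and NCU03750, and in the NCU04170 window NCU04171 alone. The NCU05188 window had none. Such places are common, since 4078 peaks were matched in all 4 lists, which hold between 4449 and 4822 H3K4me3 peaks. A q-value under 0.01 was also common, with 90.2% to 93.9% of the peaks of each list. The genes under the most enriched WT DD peak of each window were NCU02048, NCU02739, NCU09248, NCU03748 and NCU04171.

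The weakest of the 11 lay beside one of the strongest sites. Over NCU03747, 129 to 141 bp from its site, H3K4me3 had a fold at the summit of 1.36 in Δkmt1/Δdim-5 LP30 and 1.34 in Δkmt1/Δdim-5 DD, against 1.40 in WT LP30 and 1.46 in WT DD, above 20.8% to 23.3% of the peaks of each list. On the other side of the same site NCU03748 had 1.73 and 1.72 in Δkmt1/Δdim-5 LP30 and DD, against 1.72 and 1.80 in WT LP30 and DD, above 59.3% to 70.1% of the peaks of each list. The most enriched in every list but WT LP30, where NCU09250 stood at 1.94, was NCU09248, with 1.91 and 1.88 in Δkmt1/Δdim-5 LP30 and DD, against 1.91 and 2.00 in WT LP30 and DD. The median over the 11 was 1.68 in Δkmt1/Δdim-5 LP30, 1.54 in Δkmt1/Δdim-5 DD, 1.65 in WT LP30 and 1.77 in WT DD, beside list medians of 1.60, 1.58, 1.64 and 1.73.

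**Figure D4:**
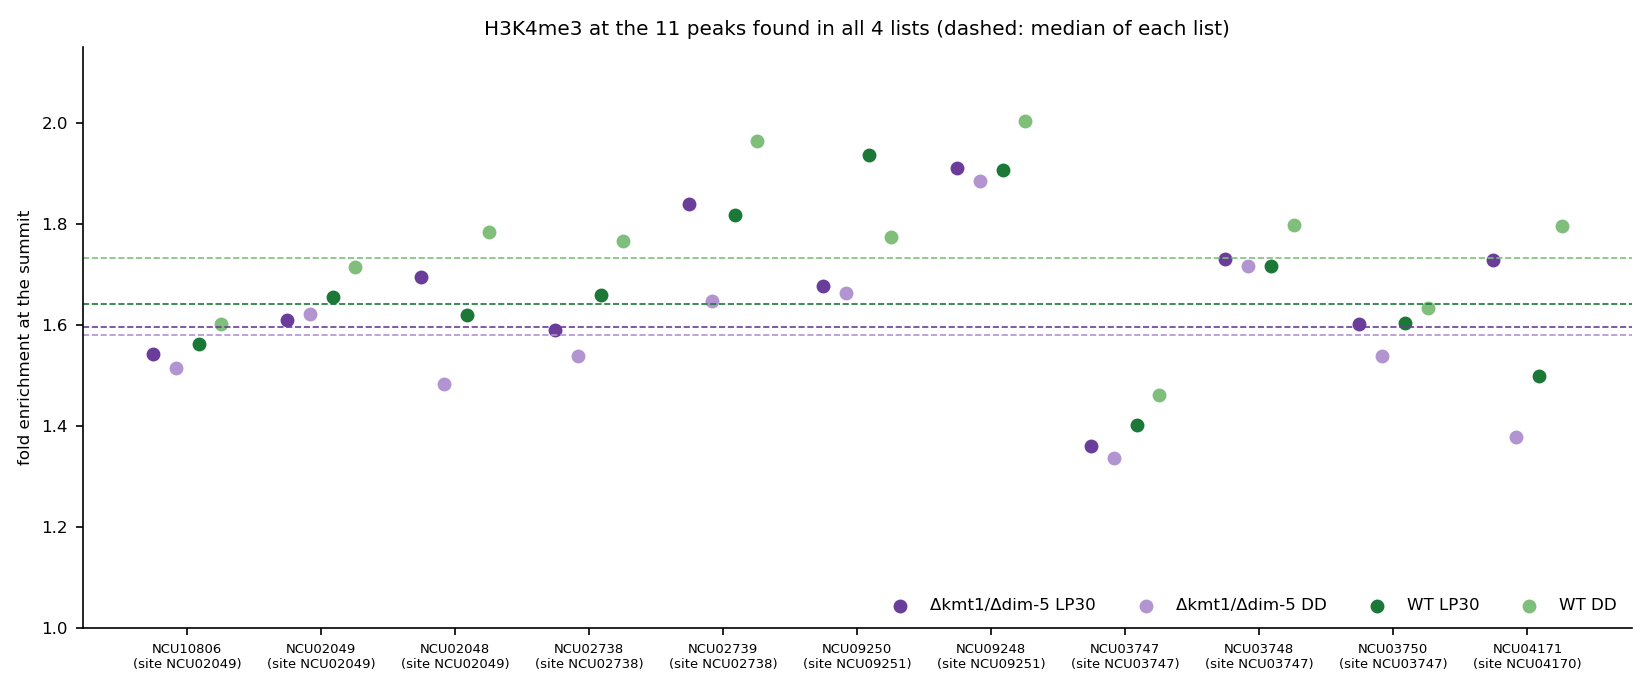
Fold enrichment of H3K4me3 at the summit for the 11 places with a peak in all 4 lists, in the order Δkmt1/Δdim-5 LP30, Δkmt1/Δdim-5 DD, WT LP30, WT DD, 1 point per pooled list and no error since replicates were pooled; dashed lines are the medians of the whole lists. NCU03747 is lowest, with 1.34 to 1.46, and NCU09248 spans 1.88 to 2.00. The axis starts at 1, where ChIP and control are equal.

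Between strains the places in the windows moved with the lists as a whole in their median, and single places spread around it. In each pair of lists 12 places were matched by summit, though not the same 12 in every pair. Their median log2 ratio of fold, Δkmt1/Δdim-5 over WT, was -0.01 in LP30 and -0.09 in DD. Over all matched peaks of the lists the median was 0.00 and -0.09. Single places ran from -0.21 to 0.21 in LP30 and from -0.38 to 0.14 in DD. Over all matched peaks the 5th and 95th percentiles were -0.29 and 0.26 in LP30 and -0.36 and 0.15 in DD. Of the places in the windows, NCU04171 in DD alone lay outside that range. Between growth conditions the median log2 ratio, LP30 over DD, was 0.04 in Δkmt1/Δdim-5 and -0.07 in WT, against 0.03 and -0.07 over all matched peaks. These pairs share lists, so they are not independent of each other. The lists were scaled one by one. At summits within 20 bp of each other, the control in Δkmt1/Δdim-5 DD exceeded that in WT DD by a median log2 ratio of 0.13. For a common shift of this size, scaling and a change of the mark cannot be told apart.

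The ChIP signal at the summits lay in a narrow range in all 4 lists. For a narrow peak, fold and p-value together give the pileup, the count of ChIP fragments that cover the summit base, and the control value that the peak caller set against it. At the 11 places it ran between 349 and 428 in Δkmt1/Δdim-5 LP30, 355 and 431 in Δkmt1/Δdim-5 DD, 354 and 426 in WT LP30 and 349 and 427 in WT DD. Pileups varied little across the whole lists as well. The median was 405, 406, 402 and 400 in Δkmt1/Δdim-5 LP30, Δkmt1/Δdim-5 DD, WT LP30 and WT DD, the 95th percentile 426, 429, 422 and 420, and the highest of any peak 435, 441, 431 and 432. With nearly all strong peaks close under one height, the pileups cannot show whether H3K4me3 was equal between strains or growth conditions. A limit on the reads counted per position in the peak caller, whose setting is not given in the sources used here, was not tested. The control ran between 188 and 308 at the 11 places, a wider range than that of the ChIP. With the ChIP close under one height, what the differences in fold between the lists come from was not tested.

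The largest differences between lists stood where the summits lay on different bases. At NCU04171, in the NCU04170 window, the fold was 1.73 in Δkmt1/Δdim-5 LP30 and 1.38 in Δkmt1/Δdim-5 DD, against 1.5 in WT LP30 and 1.80 in WT DD. By strain this would be a log2 ratio, Δkmt1/Δdim-5 over WT, of 0.21 in LP30 and -0.38 in DD. The summits of Δkmt1/Δdim-5 LP30 and WT DD, with the 2 high folds, were 33 bp apart. Those of Δkmt1/Δdim-5 DD and WT LP30, with the 2 low folds, were 96 bp apart, and the pairs lay between 454 and 583 bp from each other on the same peak. The ChIP pileup was 414, 425, 416 and 406 in Δkmt1/Δdim-5 LP30, Δkmt1/Δdim-5 DD, WT LP30 and WT DD, while the control was 239, 308, 277 and 226.

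NCU02048 showed the same grouping. Its fold was 1.70 in Δkmt1/Δdim-5 LP30 and 1.48 in Δkmt1/Δdim-5 DD, against 1.62 in WT LP30 and 1.78 in WT DD. The summits of Δkmt1/Δdim-5 LP30 and WT DD were 14 bp apart, and those of Δkmt1/Δdim-5 DD and WT DD 501 bp apart. At NCU02739 the fold was 1.84 in Δkmt1/Δdim-5 LP30 and 1.65 in Δkmt1/Δdim-5 DD, against 1.82 in WT LP30 and 1.96 in WT DD, and the summit of Δkmt1/Δdim-5 DD stood between 280 and 452 bp from the other 3. At these 3 of the 11 places the summits spread over more than 300 bp and the highest and lowest fold differed by 0.30 to 0.42. At the other 8 the summits spread over 81 to 219 bp and the folds differed by 0.08 to 0.27.

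**Figure D5:**
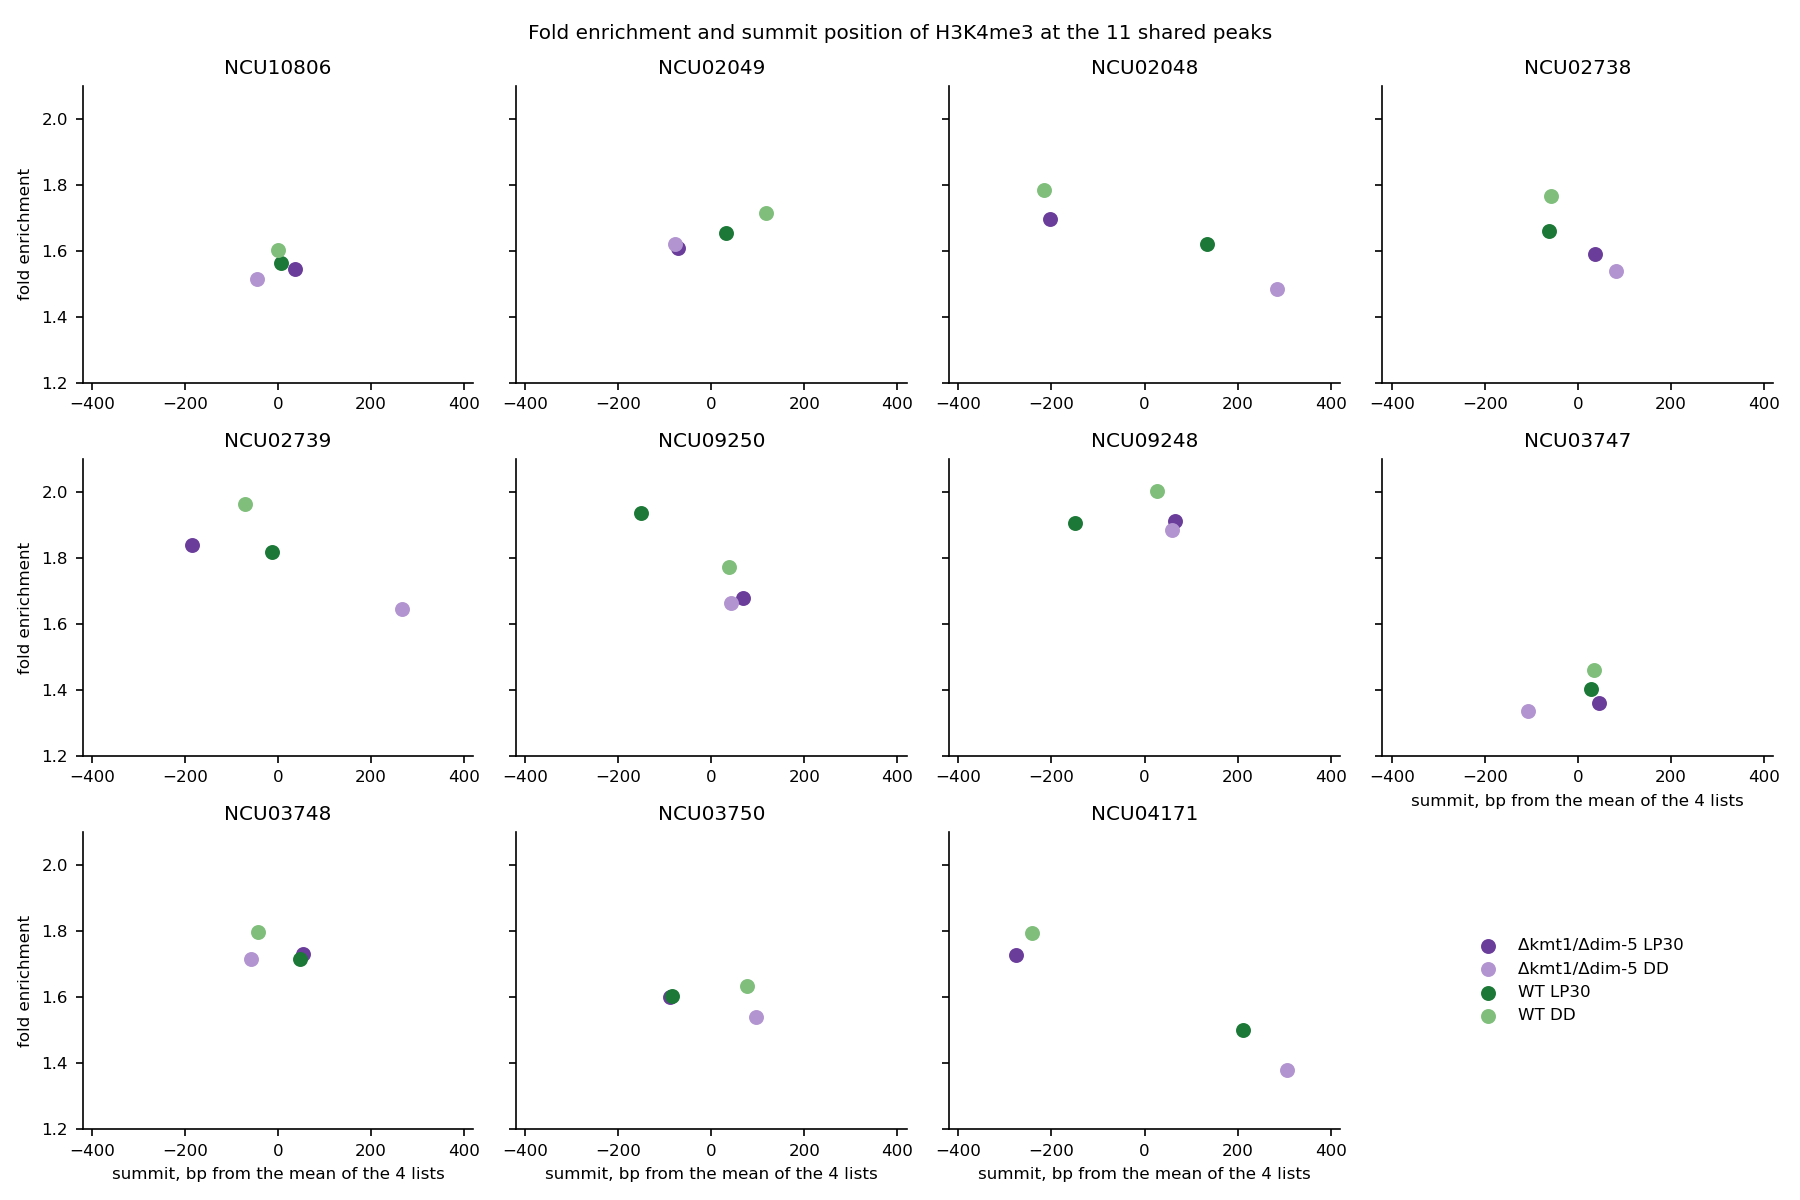
Fold enrichment of H3K4me3 at the 11 shared places against the position of the summit (bp from the mean of the 4 lists), 1 point per pooled list. At NCU04171, NCU02048 and NCU02739 the summits spread over 452 to 583 bp and the folds over 0.30 to 0.42, with neighbouring folds for lists with neighbouring summits at NCU04171 and NCU02048.

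Across the whole lists the spread also widened with the distance between summits. Among matched peaks of Δkmt1/Δdim-5 DD and WT DD, the SD over peaks of the log2 ratio of fold was 0.07 for the 885 pairs with summits within 20 bp, 0.14 for the 2683 pairs 21 to 300 bp apart and 0.28 for the 629 pairs over 300 bp apart. The SD of the log2 ratio of the control was 0.02, 0.11 and 0.22. Between Δkmt1/Δdim-5 LP30 and WT LP30 the SD of the fold ratio was 0.08, 0.15 and 0.28 over the same 3 ranges. The log2 ratio of -0.38 at NCU04171 in DD was lower than all but 4.08% of matched peaks, and its summits were 550 bp apart in that pair.

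Of the genes that name a site, pef-1 had a fold of 1.59 in Δkmt1/Δdim-5 LP30 and 1.54 in Δkmt1/Δdim-5 DD, against 1.66 in WT LP30 and 1.77 in WT DD, with summits within 145 bp. The log2 ratio, Δkmt1/Δdim-5 over WT, was -0.06 in LP30 and -0.20 in DD, where it exceeded that of 17.2% of matched peaks. NCU02049 had 1.61 and 1.62 in Δkmt1/Δdim-5 LP30 and DD, against 1.65 and 1.71 in WT LP30 and DD, and its log2 ratio of -0.08 in DD was close to the -0.09 of the whole lists, and 0.01 above it. All 3 named genes with a summit inside, NCU03747 included, had lower deposited folds in Δkmt1/Δdim-5 than in WT in both growth conditions. The share of all matched peaks lower in both was not counted, and their median log2 ratio was 0.00 in LP30 and -0.09 in DD. Nothing particular to the 3 genes is therefore read from this. NCU02049 in DD was not lower once the median of the lists was subtracted. The log2 ratios of the 3 genes exceeded 29.0% to 34.5% of matched peaks in LP30 and 17.2% to 57.3% in DD. At NCU10806, with summits within 81 bp, the fold was 1.54 and 1.52 in Δkmt1/Δdim-5 LP30 and DD, against 1.56 and 1.60 in WT LP30 and DD. At NCU03748, with summits within 113 bp, the folds given above differed by 0.08 at most. At NCU09250, beside the NCU09251 site, WT LP30 stood out with 1.94, against 1.77 in WT DD, and 1.68 and 1.66 in Δkmt1/Δdim-5 LP30 and DD. Its summit lay 190 to 219 bp from those of the other lists, which were within 29 bp of each other.

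The remaining 7 of the 18 places had a peak in fewer than 4 lists. All were short, between 222 and 515 bp, with folds between 1.09 and 1.29, and 4 of them had a q-value under 0.01 in at least 1 list. Of the Δkmt1/Δdim-5 LP30 peaks, 3 of 15 had no overlapping peak in WT LP30, against 11.9% over the whole list, and 2 of the 14 WT LP30 peaks had none in Δkmt1/Δdim-5 LP30, against 5%. In DD, WT lacked a counterpart for 2 of the 14 peaks of Δkmt1/Δdim-5, against 11.9%, and Δkmt1/Δdim-5 lacked one for 0 of the 12 peaks of WT, against 4.59%. By growth condition, 3 of the 15 Δkmt1/Δdim-5 LP30 peaks had none in DD, against 5.87%, and 2 of 14 the other way, against 4.55%. In WT, 2 of the 14 LP30 peaks had none in DD, against 4.05%, and 0 of 12 the other way, against 3.06%. With counts of 0 to 3 nothing is read from the differences between these shares and those of the whole lists.

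Those with a q-value under 0.01 and no counterpart in the other strain were both in Δkmt1/Δdim-5 LP30. One lay over NCU02736 in the pef-1 window, 241 bp long with a fold of 1.25 and a −log10 q of 2.99. The other lay over NCU09252 in the NCU09251 window, 423 bp long with a fold of 1.19 and a −log10 q of 2.04, just past the threshold. Neither had a peak in Δkmt1/Δdim-5 DD. A weaker peak of Δkmt1/Δdim-5 DD, with a fold of 1.09, lay over NCU09252 as well, on other bases.

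In the NCU05188 window H3K4me3 was found in the mutant alone, and weakly. Both peaks lay over NCU05186, with a fold of 1.17 and a −log10 q of 1.80 in Δkmt1/Δdim-5 LP30 and a fold of 1.12 and a −log10 q of 0.89 in Δkmt1/Δdim-5 DD. Neither reached a q-value under 0.01. WT LP30 and WT DD had no peak in the window, a state shared by 8.26% and 8.58% of the windows around annotated genes, and by 34.2% of those around short WT DD H3K9me3 peaks in both lists. The small place between pef-1 and its site was the one with 3 lists: the fold was 1.29 in Δkmt1/Δdim-5 DD, against 1.09 in WT LP30 and 1.17 in WT DD, and Δkmt1/Δdim-5 LP30 had no peak there. Its −log10 q was 3.15 in Δkmt1/Δdim-5 DD, against 0.23 in WT LP30 and 1.21 in WT DD. At NCU09249 a place had a peak in both LP30 lists and neither DD list, with a fold of 1.21 and a −log10 q of 1.59 in Δkmt1/Δdim-5 LP30, against 1.29 and 2.80 in WT LP30. None of these differences could be set against replicates.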

How the data were processed

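The authors aligned the ChIP-seq reads with BWA to the NC12 genome build and then ran MACS2, whose version is not given in the sources used here. They deposited 8 lists, 1 per strain, growth condition and mark, each pooling 2 replicates: broad peaks for H3K9me3 (control: H3K9me3 ChIP of Δkmt1/Δdim-5 DD) and narrow peaks for H3K4me3 (control: H3K4me3 ChIP of Δkmt2/Δset-1 DD). Per peak the authors deposited a score, a fold enrichment (ratio of ChIP to control), and the −log10 of the p-value and of the q-value, as means over a broad peak or at the summit of a narrow one. The lists are scaled separately and give no read totals.

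The 6 members and all gene lists were chosen with earlier results of these data known. Python 3.11.15, numpy 2.4.6, scipy 1.17.1 and pandas 2.3.3 were used. Peaks matched when 1 bp overlapped, and for fold ratios when the peak of the first list held the summit of the other. Windows reached 10 kb from the edges of the WT DD peak. Starts are counted from 1. Pileups were solved from fold and p-value with a pseudocount of 1; all but 1 to 5 peaks per list were solved, and 95.4% to 96.6% of pileups were whole within 0.02. Overlaps, distances and the solver were tested on simulated data.

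Gene spans came from the RefSeq annotation of NC12, without strand. Genes named by rule were the 6 members, the genes beside each site, the gene under the most enriched WT DD H3K4me3 peak of each window, and genes at H3K4me3 peaks with a q-value under 0.01 in one strain only. Other genes are named for peaks in the windows, and were picked after their values were seen. No genome sequence was used. With pooled lists no test between conditions was made.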

Additional observations from a re-analysis of the deposited data

Results flagged for a closer look

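At 5 of the 11 places with H3K4me3 in all 4 lists the log2 ratio of fold, Δkmt1/Δdim-5 over WT, was above 0 in LP30 and below 0 in DD. The LP30 ratio minus the DD ratio was 0.59 at NCU04171 (0.21 in LP30 and -0.38 in DD), 0.33 at NCU02048 (0.07 and -0.27), 0.27 at NCU02739 (0.02 and -0.25), 0.09 at NCU09248 (0.00 and -0.09) and 0.08 at NCU03748 (0.01 and -0.07). Over all matched peaks of the lists the ratio was 0.00 in LP30 and -0.09 in DD, and among the 4078 peaks matched in all 4 lists 39.5% had the same pair of signs. With the list medians subtracted, a comparison chosen after seeing the data, NCU04171, NCU02048 and NCU02739 kept the pair of signs, and NCU09248 and NCU03748 did not. That pair was then found at 3 of 11 places and at 21.9% of all matched peaks. The opposite pair, below 0 in LP30 and above 0 in DD, was then found at 4 of 11 places and at 21.5% of all. Before the subtraction the opposite pair stood at 0 of 11 places and at 6.35% of all. The difference was not tested at any place, since each value comes from 1 pooled list. At NCU04171, NCU02048 and NCU02739 the summits of the 4 lists lay on bases 452 to 583 bp apart, as described above.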

How the results depend on the processing

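No paired analysis was possible because each peak list pools its replicates. For the same reason no replicate could be left out, and the planned base composition of the 6 sites, also with 500 bp on either side, was not run without a genome sequence. Of 68 alternative values, 45 stayed within 1.5 times the first, among them every median distance to H3K4me3, every count of member genes with H3K4me3 and every count in which 50% of a peak had to be covered for a match. Window counts follow the window's size by construction: with 5 kb on either side they were 8, 8, 8 and 7 in Δkmt1/Δdim-5 LP30, Δkmt1/Δdim-5 DD, WT LP30 and WT DD, and with 20 kb they were 32, 28, 28 and 27. With a fold of at least 1.5 the Δkmt1/Δdim-5 DD count was 8 and the WT LP30 count 9.

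Counts of unmatched peaks are small and changed with the setting. With a q-value under 0.01 in the list that holds the peak, 0 WT LP30 peaks had none in Δkmt1/Δdim-5, 0 Δkmt1/Δdim-5 DD peaks had none in WT, 1 Δkmt1/Δdim-5 DD peak had none in LP30 and 1 WT LP30 peak had none in DD. With a fold of at least 1.5 in both lists, 1 Δkmt1/Δdim-5 LP30 peak had none in WT, 0 WT LP30 peaks had none in Δkmt1/Δdim-5, 0 Δkmt1/Δdim-5 DD peaks had none in WT and 2 WT DD peaks had none in Δkmt1/Δdim-5. By growth condition the counts were 0 for Δkmt1/Δdim-5 DD against LP30, 0 for WT LP30 against DD and 1 for WT DD against LP30. Under this setting a weaker peak at the same place does not count as a match. Counting a Δkmt2/Δset-1 H3K9me3 peak within 2 kb as a match gave 1 site of 6 in LP30 and 1 in DD, that of NCU05188, and within 500 bp gave 0. With the list medians subtracted, an alternative chosen after seeing the data, 3 places in place of 5 had a ratio of Δkmt1/Δdim-5 to WT above 0 in LP30 and below 0 in DD. The opposite pair of signs was then found at 4 places in place of 0.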
